A study of Mus musculus with 6 samples.

Results

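The genes described here carry glucose through the main routes of sugar metabolism: uptake, glycolysis, lactate and glycerol 3-phosphate formation, the pentose phosphate pathway, and glycogen storage. A list of 38 mouse genes was matched by symbol to the table of log2 CPM values (CPM is a read count scaled to the size of its library), which holds 13734 genes with Entrez identifiers. Rows were found for 32 of the 38 genes, and all 32 passed the low-value filter of at least 1 CPM in at least 3 libraries. Hk1, Gpi1, Tpi1, Ldha, Rpia and Pygb are not analysed here.

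Cells enter glucose into glycolysis through facilitative transporters and hexokinase, and phosphofructokinase is the main regulated step, driven by fructose 2,6-bisphosphate. The pentose phosphate pathway branches off at glucose 6-phosphate and yields NADPH, which fat cells use to build fatty acids. Adipocytes also turn glycolytic dihydroxyacetone phosphate into glycerol 3-phosphate, the backbone of stored triglyceride, and keep a small glycogen store.

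Poly(A) RNA of white adipocytes was sequenced in 3 DICER_KO and 3 control libraries. The cells were all differentiated from 1 immortalized line of subcutaneous preadipocytes with floxed Dicer1 and Cre-ERT2, a Cre recombinase switched on by tamoxifen. The sample titles call the controls WT control. On day 6 of differentiation the DICER_KO cells received 10 µM 4-hydroxytamoxifen for 48 h and the control cells received ethanol, so that drug and gene deletion cannot be told apart. Both groups then received 10 µM isoproterenol, a beta-adrenergic agonist that starts fat breakdown, for 6 h, and both had been kept in medium with 20 nM insulin and 2.8 µM rosiglitazone, a PPAR gamma agonist. Unstimulated cells are not analysed here. The labels call the libraries biological replicates without saying that they came from separate cultures, so p-values measure the spread between these samples, which may be technical.

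The libraries held 13569034 to 30268077 reads on the genes of the table, and the members had 190 to 166645 reads in any library. Dicer1, which encodes the nuclease that cuts precursor microRNAs, had 5.43, 5.47 and 5.49 log2 CPM in DICER_KO replicates 1, 2 and 3, against 6.14, 6.09 and 6.14 in control replicates 1, 2 and 3, a difference of -0.66 (SE 0.096, limma adjusted p = 0.0150), lower in each DICER_KO library and still detected. That row counts reads of the whole gene and not of the deleted part alone. Of 12 mature adipocyte markers 12 had a row, and their summed level was 13040, 12890 and 4069 CPM in DICER_KO replicates 1, 2 and 3, against 9149, 8019 and 9990 CPM in control. DICER_KO replicate 3 therefore stood apart, with a median marker level 1.18 below the control mean on the log2 scale where replicates 1 and 2 lay 0.59 above it. Summed preadipocyte and stromal markers were 4852, 5424 and 4373 CPM in DICER_KO, against 8021, 8988 and 7847 CPM in control, over 11 of 12 with a row. The lower sum was carried by the matrix genes Col1a1, Col3a1 and Dcn: without them the sum was 971.2, 977.6 and 748.5 CPM in DICER_KO, against 958.8, 944.3 and 849.3 CPM in control. Over the 9 stromal markers tested the median difference without DICER_KO replicate 3 was 0.0023, and Pdgfra, Pdgfrb, Dlk1, Cd34 and Ly6a did not pass. In that fit 4 of the 9 were called lower (Col1a1, Col3a1, Dcn and Thy1), or 44.4% beside 7.22% of all genes. Thy1 had 5.85, 5.87 and 5.59 log2 CPM in DICER_KO, against 6.22, 6.35 and 6.13 in control. Its difference was -0.46 with all libraries and -0.38 (limma adjusted p = 0.0179) without replicate 3. With all libraries 7 of the 9 differences were negative. Macrophage markers summed to 29.0, 29.0 and 32.3 CPM in DICER_KO, against 24.0, 29.1 and 24.2 CPM in control, over the 5 of 10 with a row. Ptprc, Adgre1, Itgam, C1qa and C1qb are not analysed here. Endothelial markers summed to 4.94 to 8.16 CPM in any library, and the 1 of 6 skeletal muscle markers with a row to 0.934 to 1.62 CPM. The calls and the members they fall on are given with all 6 libraries and without DICER_KO replicate 3. The fit without replicate 3 was chosen with earlier results of these data known.

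Members moved in both directions, and most did not pass the test. With all libraries 0 of 32 members passed limma's adjusted threshold of 0.05, against 0.438% of the 10054 genes tested, and 9 members had an unadjusted p below 0.05 (2 higher, 7 lower), beside 15.8% of all genes (8.49% higher, 7.35% lower). Without DICER_KO replicate 3, 6 members were called higher (Slc2a4, Ldhb, Gpd1, G6pdx, Taldo1 and Ugp2) and 4 lower (Slc2a1, Pfkfb3, Slc16a3 and Pygl), which is 31.2% of the members against 19.7% of all genes. In that fit 12.5% of all genes were called higher and 7.22% lower. The control and 2 remaining DICER_KO libraries differed slightly in their median: with medians made equal, 20.3% of all genes passed, split into 10.3% higher and 10% lower, and the members into 5 higher and 5 lower, as G6pdx no longer passed (limma adjusted p = 0.0826) and Aldoc did (limma adjusted p = 0.0361). With all libraries kept but weighted by how well each fitted the model, 9 members were called higher and 6 lower, beside 25.3% and 19.3% of all genes, or 44.6% in either direction. The estimate of these weights stopped before it converged, and control replicate 1 had the largest, at 7.54.

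The median difference of the members, DICER_KO minus control, was -0.11 with all libraries and -0.035 without DICER_KO replicate 3, beside 0.018 and 0.023 over all genes. Negative differences were found for 20 of 32 members with all libraries, and for 47.2% of all genes. The 3 DICER_KO libraries lay entirely on 1 side of the 3 control libraries for 7 members, or 21.9%, beside 20.2% of all genes: Slc2a1, Aldoc, Pfkfb3, Slc16a3, Pygl and Gbe1 were lower and Taldo1 was higher. DICER_KO replicates 1 and 2 lay on the opposite side of the control mean from replicate 3 for 7 members (Slc2a4, Pfkm, Ldhb, Slc16a1, Gpd1, G6pdx and Tkt), beside 33.2% of all genes. The rises of Slc2a4, Ldhb and Gpd1 thus rest on replicates 1 and 2, while the lower levels of Slc2a1, Pfkfb3 and Slc16a3 were seen in all 3 DICER_KO libraries. The matrix genes and Thy1 among the stromal markers were lower in all 3 DICER_KO libraries too. Of the 9 stromal markers tested, 7 had negative differences with all libraries, and 5 had positive differences without replicate 3. The part of stromal content in the lower members was not tested.

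**Figure D1:**
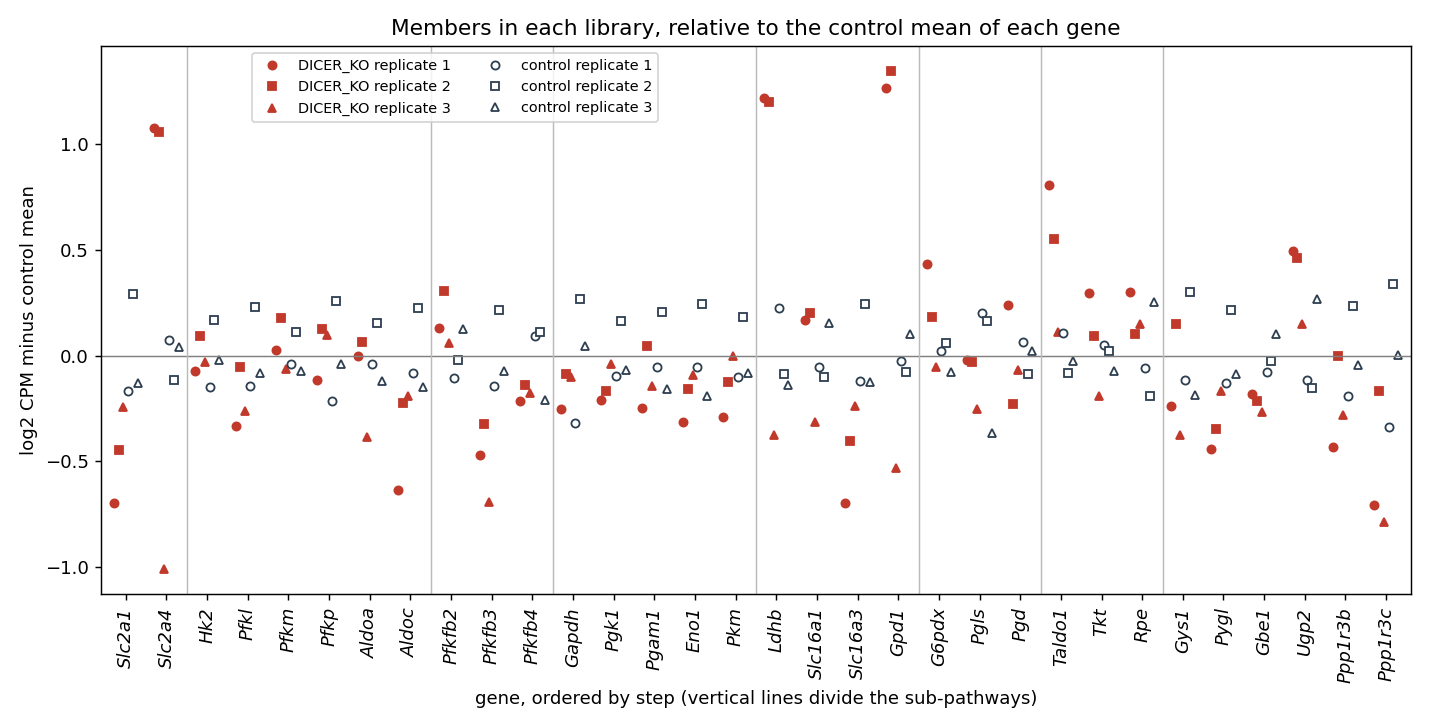
Level of each of the 32 members in each library, as log2 CPM minus the control mean of that gene, with DICER_KO libraries as filled symbols and control libraries as open symbols; vertical lines divide the sub-pathways. For Slc2a4, Ldhb and Gpd1 the DICER_KO replicates 1 and 2 sit more than 1 above the control mean and replicate 3 below it, while for Slc2a1, Pfkfb3 and Slc16a3 all 3 DICER_KO libraries sit below the control libraries.

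Upstream sequences of 6 members are shown because they carry or lack ACGTG, the core of the element bound by hypoxia-inducible factor. The known targets of that transcription factor include Slc2a1, Pfkfb3 and Slc16a3. These genes are named because they were called lower without DICER_KO replicate 3. The naming is not complete, as the other members were not sorted into targets and non-targets. Each stretch covers bases 150 to 6 upstream of a RefSeq start (GRCm38.p6) and is written 5′ to 3′ on the gene's strand, with ACGTG on either strand in capitals. The first 4 genes were called lower without DICER_KO replicate 3, and the last 2 higher.
Slc2a1 chr4:119108595-119108739 (+ strand): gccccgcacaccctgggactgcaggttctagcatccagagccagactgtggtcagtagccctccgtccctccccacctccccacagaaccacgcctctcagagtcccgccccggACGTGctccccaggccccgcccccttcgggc
Pfkfb3 chr2:11502096-11502240 (- strand): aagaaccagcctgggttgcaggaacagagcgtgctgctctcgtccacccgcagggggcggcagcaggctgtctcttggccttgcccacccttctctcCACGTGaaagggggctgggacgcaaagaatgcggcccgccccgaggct
Slc16a3 chr11:120948917-120949061 (+ strand): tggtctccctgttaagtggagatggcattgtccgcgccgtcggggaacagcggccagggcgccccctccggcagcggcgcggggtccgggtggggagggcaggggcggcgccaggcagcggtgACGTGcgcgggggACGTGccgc
Pygl chr12:70227689-70227833 (- strand): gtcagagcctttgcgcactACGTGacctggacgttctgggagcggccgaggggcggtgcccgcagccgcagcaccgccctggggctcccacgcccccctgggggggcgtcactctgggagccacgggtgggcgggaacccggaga
Ldhb chr6:142507963-142508107 (- strand): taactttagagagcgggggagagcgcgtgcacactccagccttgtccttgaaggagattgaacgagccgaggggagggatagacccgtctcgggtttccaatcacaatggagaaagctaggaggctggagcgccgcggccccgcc
Taldo1 chr7:141392010-141392154 (+ strand): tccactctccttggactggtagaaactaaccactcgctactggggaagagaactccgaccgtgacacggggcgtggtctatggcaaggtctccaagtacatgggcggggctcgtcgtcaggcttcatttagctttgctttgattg

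ACGTG starts 36 bases upstream of the start in Slc2a1, 131 bases upstream in Pygl, and 27 and 14 bases upstream in Slc16a3. In the stretch shown for Pfkfb3, an alternative start of the gene, it lies within CACGTG, the E-box, and so matches on both strands. In windows of 250 upstream bases, ACGTG on either strand was found in 14 of 29 members with a promoter entry (48.3%) and in 24.9% of 7932 tested genes with one. CACGTG, which contains ACGTG, was found in 5 members (17.2%) and 9.98% of genes. TGACG, part of the cyclic AMP response element, was found in 8 members (27.6%) and 29.9% of genes. A gene counted once if any of its annotated promoters held the motif. Without DICER_KO replicate 3, ACGTG was present in the 4 members called lower, and of the 4 members called higher that have an entry it was present in Ugp2 and absent from Ldhb, Taldo1 and G6pdx. It was also present in 9 members not called in that fit: Hk2, Pfkm, Aldoa, Pfkfb2, Pgk1, Pgam1, Pkm, Slc16a1 and Ppp1r3c. Aldoc, called lower with medians made equal, and Gbe1, lower in each DICER_KO library, had none. Without DICER_KO replicate 3 the motif was thus found in members called lower, in Ugp2, called higher, and in members not called. These matches describe letters in a window, and binding was not measured. Slc2a4, Gpd1 and Ppp1r3b had no entry.

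Without DICER_KO replicate 3, the 2 glucose transporters moved in opposite directions. Slc2a1 had 9.19, 9.44 and 9.65 in DICER_KO, against 9.72, 10.18 and 9.76 in control (log2 CPM, replicates 1, 2 and 3 in order here and below). Slc2a1 (Entrez 20525, chr4:119108745-119137330) encodes GLUT1, the transporter of basal glucose uptake. All 3 DICER_KO libraries were below all 3 control libraries, and DICER_KO minus control was -0.46 (SE 0.16, limma adjusted p = 0.228) with all libraries and -0.57 (SE 0.13, limma adjusted p = 0.00722) without DICER_KO replicate 3, where Slc2a1 fell to 0.673 of control. Slc2a4 had 5.76, 5.74 and 3.67 in DICER_KO, against 4.76, 4.56 and 4.72 in control. Slc2a4 (Entrez 20528, chr11:69942286-69948216) encodes GLUT4, the insulin-responsive transporter of fat and muscle. DICER_KO replicates 1 and 2 were above all controls and replicate 3 was below all controls, and the difference was 0.37 (SE 0.44, limma adjusted p = 0.669) with all libraries and 1.07 (SE 0.11, limma adjusted p = 8.39e-06) without replicate 3, a 2.09-fold rise.

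Within each library, Slc2a4 per length was well below Slc2a1. The log2 ratio of Slc2a4 to Slc2a1, each per kilobase of exon, was -3.42, -3.69 and -5.97 in DICER_KO, against -4.96, -5.60 and -5.03 in control. The ratio was higher in DICER_KO replicates 1 and 2 than in any control and lower in replicate 3 than in any control.

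None of the 6 upper glycolysis genes passed with all libraries or without DICER_KO replicate 3. Hk2, the insulin-responsive hexokinase of fat and muscle, had 7.64, 7.80 and 7.68 in DICER_KO, against 7.56, 7.88 and 7.69 in control, and the difference of -0.0033 (SE 0.11, limma adjusted p = 0.989), or 0.0097 without replicate 3, changed sign between settings. Of the phosphofructokinase genes, Pfkl had 9.11, 9.39 and 9.18 in DICER_KO, against 9.30, 9.67 and 9.36 in control. Pfkm had 5.59, 5.74 and 5.50 in DICER_KO, against 5.52, 5.67 and 5.49 in control, and Pfkp had 7.82, 8.06 and 8.03 in DICER_KO, against 7.72, 8.19 and 7.89 in control. The groups overlapped for each of these 3 genes. Aldoa, the main aldolase here, had 11.09, 11.16 and 10.71 in DICER_KO, against 11.06, 11.25 and 10.98 in control, with DICER_KO replicate 3 lowest. Aldoc had 3.77, 4.18 and 4.21 in DICER_KO, against 4.32, 4.63 and 4.26 in control. Aldoc, an aldolase best known from brain, was lower in each DICER_KO library than in any control, with a difference of -0.35 (SE 0.16, limma adjusted p = 0.313) with all libraries and -0.43 (SE 0.15, limma adjusted p = 0.0539) without replicate 3.

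Pfkl, the liver-type form, was lower relative to the other phosphofructokinase genes in each DICER_KO library than in any control. The log2 ratio of Pfkl to Pfkm per kilobase was 2.53, 2.65 and 2.68 in DICER_KO, against 2.78, 3.000 and 2.88 in control, with no overlap. The ratio of Pfkl to Pfkp was 2.30, 2.33 and 2.16 in DICER_KO, against 2.58, 2.49 and 2.47 in control, also with no overlap. The mean difference was -0.26 for the first ratio and -0.25 for the second, on the log2 scale.

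Pfkfb3 was the member with the smallest unadjusted p with all libraries. Pfkfb3 had 6.10, 6.25 and 5.88 in DICER_KO, against 6.43, 6.79 and 6.50 in control. Pfkfb3 (Entrez 170768, chr2:11471430-11554071) encodes the bifunctional enzyme with the highest kinase to phosphatase ratio, which makes the fructose 2,6-bisphosphate that activates phosphofructokinase. All 3 DICER_KO libraries were below all controls, replicate 3 the lowest. The difference was -0.50 (SE 0.13, limma adjusted p = 0.133) with all libraries, at an unadjusted limma p of 0.00344, and -0.40 (SE 0.12, limma adjusted p = 0.0243) without DICER_KO replicate 3, so Pfkfb3 fell to 0.759 of control in that fit. Pfkfb2 had 4.08, 4.26 and 4.02 in DICER_KO, against 3.85, 3.93 and 4.08 in control, and Pfkfb4 had 3.44, 3.52 and 3.48 in DICER_KO, against 3.75, 3.77 and 3.44 in control. Their differences without replicate 3 were 0.22 and -0.18, and neither passed. Pfkfb4 lay below the control mean in all 3 DICER_KO libraries, and the groups overlapped. The log2 ratio of Pfkfb3 to Pfkfb2 per kilobase was 1.96, 1.93 and 1.81 in DICER_KO, against 2.52, 2.80 and 2.36 in control, a mean of 1.90 ± 0.081 in DICER_KO and 2.56 ± 0.22 in control (SD, n = 3 each), with no overlap. That of Pfkfb3 to Pfkfb4 was 2.03, 2.10 and 1.77 in DICER_KO, against 2.05, 2.39 and 2.42 in control, and the groups overlapped.

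MicroRNAs bind mainly through bases 2 to 8, the seed, and Pfkfb3 is shown with its seed matches because it carries 5 matches to the 12 microRNAs searched and was called lower without DICER_KO replicate 3. Sites of Gpd1 and G6pdx, called higher in that fit, stand beside them. Slc16a1 also carries 5 matches and did not pass with all libraries or without replicate 3. The 3′ UTRs differ in length, and the number of matches per gene has no background over all genes. MicroRNAs themselves were not measured. The mature RefSeq sequences have the seed in capitals, and each site is 30 bases of the longest annotated 3′ UTR with the seed match in capitals.
miR-103-3p: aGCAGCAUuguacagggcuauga
miR-125b-5p: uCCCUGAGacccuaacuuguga
miR-26a-5p: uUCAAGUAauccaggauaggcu
Pfkfb3 site for miR-103-3p: ggaccctttatgacgATGCTGCacaactag
Pfkfb3 site for miR-125b-5p, first: cccacttgccagaggCTCAGGGacaagttg
Pfkfb3 site for miR-125b-5p, second: tcctctcttccccagCTCAGGGgacaacag
Pfkfb3 site for miR-26a-5p, first: tattttcatttgtaaTACTTGAagtttatt
Pfkfb3 site for miR-26a-5p, second: gcttgtcagtgccttTACTTGAgtcaatca
Gpd1 site for miR-125b-5p, first: ctgctgacctttcttCTCAGGGtcctcccc
Gpd1 site for miR-125b-5p, second: ttatagtttatcgtcCTCAGGGctgtcagc
G6pdx site for miR-103-3p, first: ccgccattttgtcctATGCTGCtgccactg
G6pdx site for miR-103-3p, second: gatggaagagacctcATGCTGCctagcaat

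The 7-base match of miR-103-3p was present in 6 of 32 members (G6pdx, Gys1, Hk2, Pfkfb3, Ppp1r3c and Slc16a3) and in 14.9% of 9509 tested genes with a 3′ UTR. That of miR-125b-5p was present in 5 members (Gpd1, Hk2, Pfkfb3, Slc16a1 and Tkt) and 16.9% of genes. That of miR-26a-5p was present in 3 members (Gbe1, Pfkfb3 and Ppp1r3c) and 11.9% of genes. Matches thus occurred in members called higher, such as Gpd1 and G6pdx, in members called lower, such as Pfkfb3 and Slc16a3, and in members that did not pass, such as Hk2. Among 9 further microRNAs searched, matches were found in 1 member for let-7a-5p, beside 12.1% of genes, and in 1 for miR-30a-5p, beside 17%. The most were found for miR-148a-3p, in 7 of 32 members beside 16.8% of genes.

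The 5 lower glycolysis genes, from Gapdh to Pkm, all had negative differences and none passed. With all libraries the differences ran from -0.19 to -0.12, and without DICER_KO replicate 3 from -0.24 to -0.10. Eno1 had 10.53, 10.69 and 10.75 in DICER_KO, against 10.79, 11.09 and 10.65 in control. Eno1, enolase, had the smallest p of the 5, with a difference of -0.19 (SE 0.14, limma adjusted p = 0.503). Pkm had 11.65, 11.82 and 11.94 in DICER_KO, against 11.84, 12.13 and 11.86 in control. Pkm encodes pyruvate kinase, which makes pyruvate. Pgk1 had 10.16, 10.21 and 10.33 in DICER_KO, against 10.28, 10.54 and 10.31 in control. For each of these 3 genes the ranges overlapped. Gapdh had 7.53, 7.70 and 7.69 in DICER_KO, against 7.47, 8.06 and 7.83 in control. Pgam1 had 8.05, 8.34 and 8.16 in DICER_KO, against 8.25, 8.51 and 8.14 in control. Several of these genes, Gapdh and Eno1 among them, have near-identical copies elsewhere in the genome, so their counts are uncertain. Eno1b, which had a row of its own, had 5.12, 5.43 and 5.48 in DICER_KO, against 5.58, 5.73 and 5.37 in control.

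**Figure D2:**
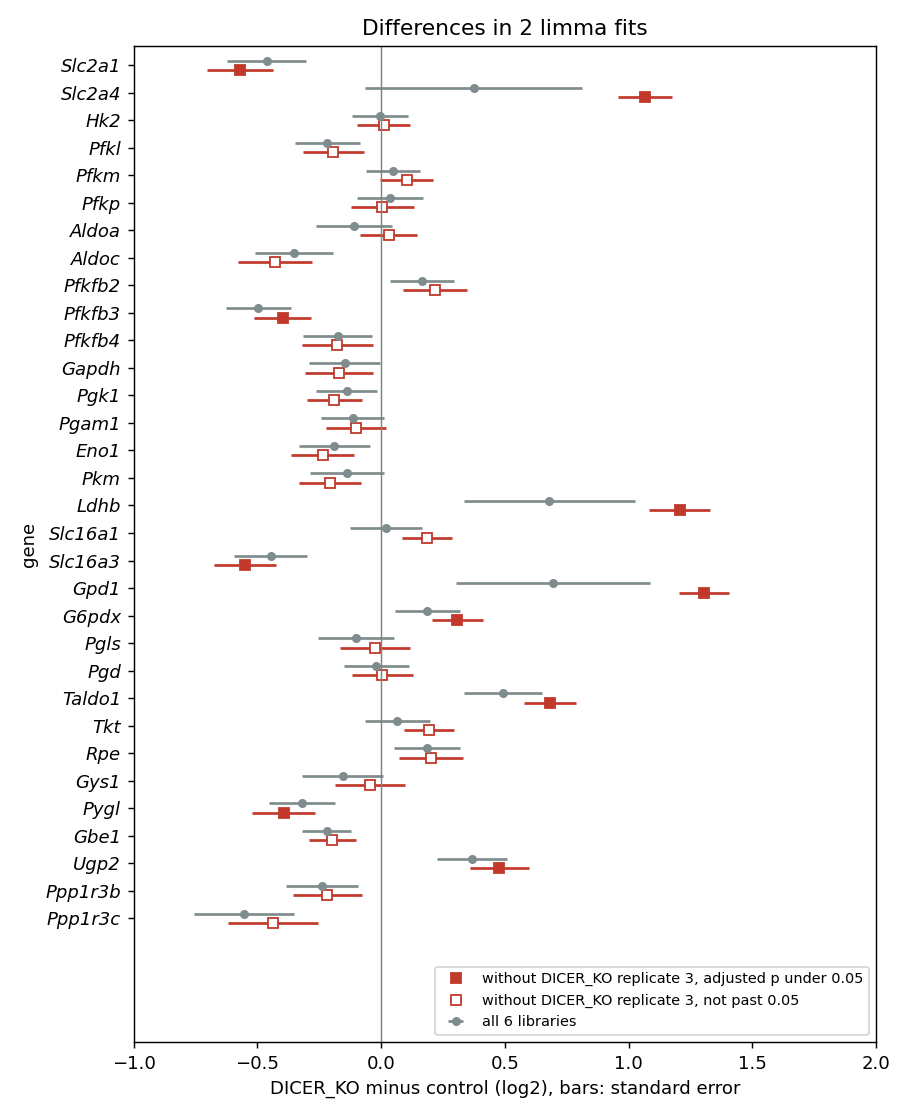
DICER_KO minus control (log2) for each member in limma fits with all 6 libraries (grey circles) and without DICER_KO replicate 3 (red squares, filled where the adjusted p was under 0.05), with bars of 1 standard error. The bars of Slc2a4, Ldhb and Gpd1 are widest with all libraries, while Slc2a1, Pfkfb3 and Slc16a3 lie below 0 in both fits.

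At the exit of the pathway, without DICER_KO replicate 3, a lactate exporter fell while the glycerol 3-phosphate gene rose. Slc16a3 had 7.77, 8.07 and 8.23 in DICER_KO, against 8.35, 8.72 and 8.35 in control. Slc16a3 (Entrez 80879, chr11:120948484-120959000) encodes MCT4, the lactate exporter of glycolytic cells. The groups did not overlap, and the difference was -0.45 (SE 0.15, limma adjusted p = 0.212) with all libraries and -0.55 (SE 0.12, limma adjusted p = 0.00590) without replicate 3, where Slc16a3 fell to 0.683 of control. Slc16a1 had 8.22, 8.25 and 7.74 in DICER_KO, against 7.99, 7.95 and 8.20 in control. Slc16a1 encodes MCT1, a monocarboxylate carrier that works in both directions, and did not pass in either fit. Its DICER_KO replicate 3 was below all controls and the other 2 were above them.

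Gpd1 (Entrez 14555, chr15:99717587-99725014) encodes the cytosolic enzyme that makes glycerol 3-phosphate. Gpd1 had 10.43, 10.52 and 8.64 in DICER_KO, against 9.15, 9.09 and 9.27 in control. Replicates 1 and 2 exceeded all controls and replicate 3 was below all of them, and the difference was 0.69 (SE 0.39, limma adjusted p = 0.392) with all libraries and 1.31 (SE 0.10, limma adjusted p = 5.84e-07) without replicate 3, a 2.47-fold rise. Ldhb had 5.76, 5.74 and 4.17 in DICER_KO, against 4.77, 4.45 and 4.40 in control. Ldhb (Entrez 16832, chr6:142490249-142507957) encodes the lactate dehydrogenase subunit of tissues that use lactate. It showed the same library pattern, with a difference of 0.68 (SE 0.35, limma adjusted p = 0.358) with all libraries and 1.21 (SE 0.12, limma adjusted p = 8.29e-06) without replicate 3, a 2.31-fold rise.

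Slc2a4, Gpd1 and Ldhb had the library pattern of 10 of the 12 mature adipocyte markers, above the control mean in DICER_KO replicates 1 and 2 and below it in replicate 3. Pfkm, Slc16a1, G6pdx and Tkt had it too, with smaller differences. Counted in either direction, replicates 1 and 2 lay opposite to replicate 3 for 33.2% of all genes. Adipoq, the adipokine adiponectin, had 8.71, 8.74 and 6.41 in DICER_KO, against 7.67, 7.55 and 7.62 in control. The markers Lpl and Cd36 differed: Lpl was below all controls, and Cd36 below the control mean, in all 3 DICER_KO libraries. Without replicate 3, 9 of the 12 adipocyte markers were called higher, beside 12.5% of all genes, at a median difference of 0.59. With all libraries 0 of the 12 were called, beside 0.438% of all genes, at a median difference of 0.071. Replicate 3 was set apart by these same markers, so their calls without it are not independent evidence. The same holds for the calls of Slc2a4, Gpd1, Ldhb and G6pdx, which share that pattern. Leaving out the library that lay on the other side favoured their p-values and fold rises. The part of the adipocyte content in these rises was not tested, and in bulk RNA fewer cells of a type and less RNA per cell cannot be told apart.

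In the oxidative pentose phosphate pathway 0 of 3 genes passed with all libraries and 1 without DICER_KO replicate 3. G6pdx (Entrez 14381, chrX:74409483-74428880) encodes glucose 6-phosphate dehydrogenase, which commits glucose to the pathway. G6pdx had 8.40, 8.15 and 7.91 in DICER_KO, against 7.99, 8.03 and 7.89 in control. Its difference was 0.19 (SE 0.13, limma adjusted p = 0.465) with all libraries and 0.31 (SE 0.10, limma adjusted p = 0.0456) without replicate 3. The call without replicate 3 ended with medians made equal. G6pdx passed with weighted libraries (limma adjusted p = 0.0229), a fit whose weight estimate stopped before it converged. Pgls had 6.16, 6.16 and 5.93 in DICER_KO, against 6.39, 6.35 and 5.82 in control. Pgd had 8.95, 8.48 and 8.64 in DICER_KO, against 8.77, 8.62 and 8.73 in control. Pgls and Pgd encode the next enzymes of the branch, and neither passed with all libraries or without replicate 3, with overlapping groups.

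The non-oxidative branch held Taldo1, the 1 member higher in each DICER_KO library than in any control. Taldo1 had 8.26, 8.004 and 7.56 in DICER_KO, against 7.56, 7.37 and 7.42 in control. Taldo1 (Entrez 21351, chr7:141392160-141402976) encodes transaldolase, which links pentose phosphates back to glycolysis. The margin was narrow, at 7.563 in DICER_KO replicate 3 against 7.555 in control replicate 1. The difference was 0.49 (SE 0.16, limma adjusted p = 0.206) with all libraries, and 0.68 (SE 0.11, limma adjusted p = 0.000381) without replicate 3, a 1.604-fold rise. Transketolase, its partner enzyme, did not pass: Tkt had 8.98, 8.77 and 8.49 in DICER_KO, against 8.73, 8.70 and 8.61 in control. The log2 ratio of Taldo1 to Tkt per kilobase was 1.04, 0.99 and 0.83 in DICER_KO, against 0.59, 0.43 and 0.58 in control, with no overlap and a mean difference of 0.43. Rpe had 5.47, 5.26 and 5.31 in DICER_KO, against 5.10, 4.97 and 5.42 in control, and its difference of 0.18 with all libraries and 0.20 without replicate 3 did not pass.

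Of the 6 glycogen genes 5 had negative differences. Pygl had 4.39, 4.49 and 4.67 in DICER_KO, against 4.71, 5.05 and 4.75 in control. Pygl (Entrez 110095, chr12:70190815-70227683) encodes the liver form of glycogen phosphorylase, which releases glucose from glycogen. All 3 DICER_KO libraries were below all controls, with a difference of -0.32 (SE 0.13, limma adjusted p = 0.291) with all libraries and -0.39 (SE 0.13, limma adjusted p = 0.0389) without replicate 3. Gbe1 had 7.78, 7.75 and 7.69 in DICER_KO, against 7.89, 7.94 and 8.06 in control. Gbe1, the branching enzyme, was likewise lower in each DICER_KO library, at -0.22 (SE 0.099, limma adjusted p = 0.314) and, without replicate 3, -0.20 (SE 0.096, limma adjusted p = 0.158). The opposite direction was seen for Ugp2 (Entrez 216558, chr11:21321126-21371267), whose product makes the UDP-glucose that glycogen is built from. Ugp2 had 7.48, 7.45 and 7.13 in DICER_KO, against 6.87, 6.83 and 7.25 in control. Its difference was 0.37 (SE 0.14, limma adjusted p = 0.264) with all libraries and 0.48 (SE 0.12, limma adjusted p = 0.0107) without replicate 3.

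Glycogen synthase, Gys1, had 7.70, 8.09 and 7.56 in DICER_KO, against 7.82, 8.24 and 7.75 in control, and did not pass. Ppp1r3b and Ppp1r3c encode subunits that bring protein phosphatase 1 to glycogen. Ppp1r3c had 3.81, 4.35 and 3.73 in DICER_KO, against 4.18, 4.85 and 4.52 in control. Ppp1r3c had the lowest unadjusted p of the glycogen genes with all libraries, at 0.0197, and its difference was -0.55 (SE 0.20, limma adjusted p = 0.250) and, without replicate 3, -0.44 (SE 0.18, limma adjusted p = 0.100). Ppp1r3b had 5.40, 5.83 and 5.55 in DICER_KO, against 5.64, 6.06 and 5.79 in control. Its difference was -0.24 with all libraries and -0.22 without replicate 3, and did not pass. The log2 ratio of Ppp1r3b to Ppp1r3c per kilobase was 0.40, 0.29 and 0.63 in DICER_KO, against 0.28, 0.022 and 0.081 in control, with no overlap and a mean difference of 0.31.

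**Figure D3:**
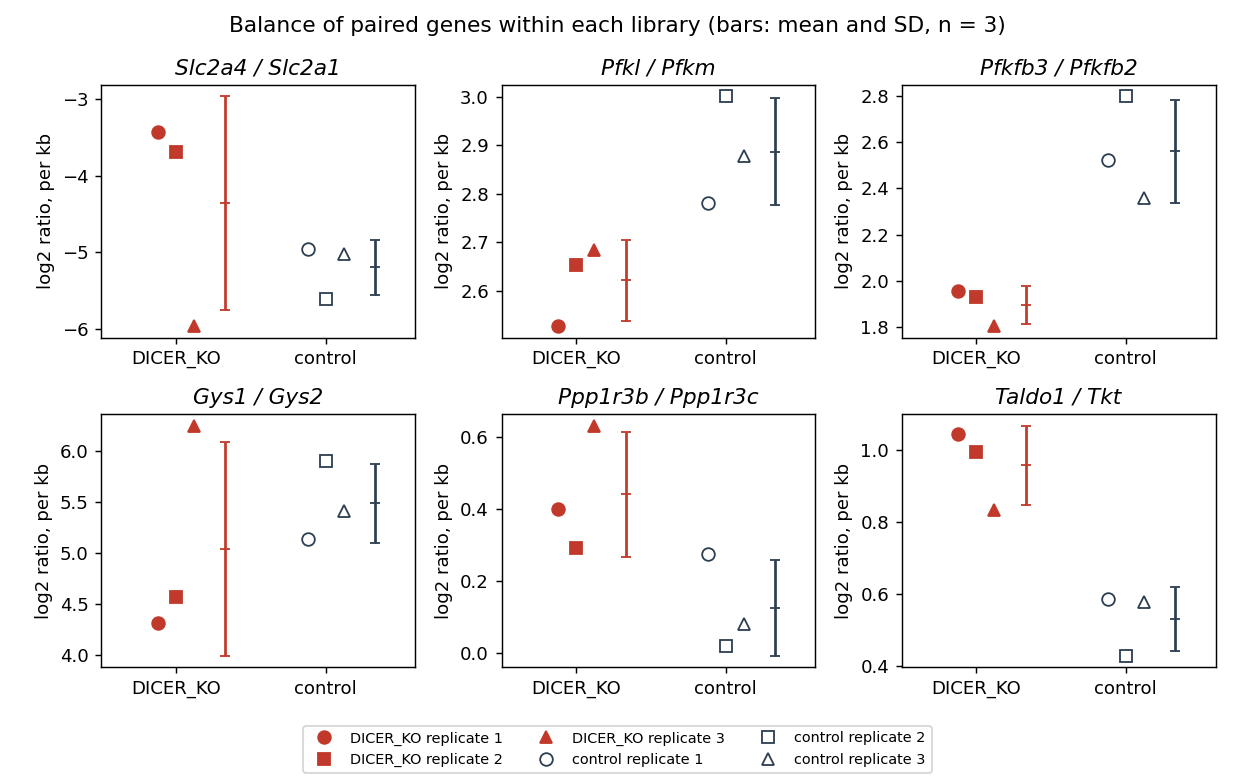
Log2 ratio of 6 pairs of genes per kilobase of exon in each library, DICER_KO left of control, with bars of the mean and SD (n = 3). The groups are apart for Pfkl to Pfkm, Pfkfb3 to Pfkfb2, Ppp1r3b to Ppp1r3c and Taldo1 to Tkt, while for Slc2a4 to Slc2a1 and Gys1 to Gys2 DICER_KO replicate 3 lies across the controls from replicates 1 and 2.

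Altogether 14 pairs were set side by side, and the groups were apart in 5 of them. The pairs were chosen by hand and some share a gene, such as Pfkl. No share over other pairs of genes was computed, so the count has no background. Among single genes the groups were apart for 20.2% of all genes tested. A comparison of 3 with 3 libraries cannot give a two-sided exact permutation p below 0.10, so these ratios are given as values without a test. The pairs not apart include Gys1 to Gys2, with 4.32, 4.57 and 6.24 in DICER_KO, against 5.14, 5.90 and 5.41 in control, and Slc16a3 to Slc16a1, with -0.71, -0.45 and 0.23 in DICER_KO, against 0.094, 0.50 and -0.12 in control.

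Levels per length spanned a wide range that the groups shared. On the scale of mean log2 CPM per kilobase of exon, Pkm was highest with 9.48 in DICER_KO and 9.62 in control, followed by Aldoa with 9.10 in DICER_KO and 9.21 in control and Pgk1 with 9.07 in DICER_KO and 9.21 in control. Eno1 had 8.23 in DICER_KO and 8.42 in control, and Gpd1 had 8.30 in DICER_KO and 7.60 in control. The lowest were Pfkfb4 with 1.19 in DICER_KO and 1.37 in control, Pfkfb2 with 1.26 in DICER_KO and 1.10 in control and Pygl with 1.73 in DICER_KO and 2.05 in control. Slc2a1 had 7.62 in DICER_KO and 8.08 in control, far above Slc2a4 with 3.26 in DICER_KO and 2.88 in control. Pfkl, with 6.49 in DICER_KO and 6.71 in control, was above Pfkp with 4.23 in DICER_KO and 4.19 in control and Pfkm with 3.87 in DICER_KO and 3.82 in control.

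**Figure D4:**
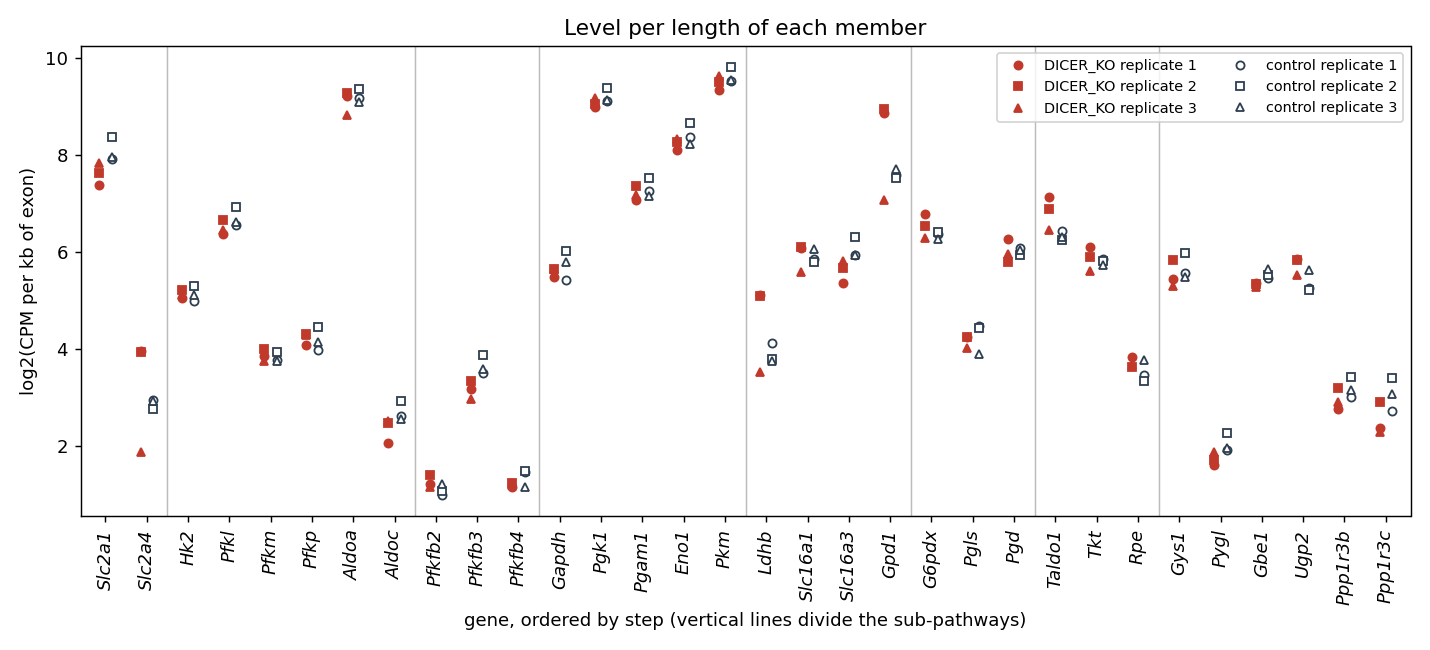
Level of each member in each library as log2 CPM per kilobase of exon, ordered by step, with DICER_KO filled and left of control. Pkm, Aldoa and Pgk1 are at the top in each library, and Pfkfb2 and Pfkfb4 at the bottom.

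Further genes of the same routes gave 0 calls with all libraries in each of the lists that follow. Of 26 other glycolysis and gluconeogenesis genes tested, without DICER_KO replicate 3, 6 were called higher and 3 lower, or 34.6%, beside 19.7% of all genes. The median of that list was -0.080, beside 0.023 over all genes. Those lower, with the difference without replicate 3 in brackets, were Slc2a3, the GLUT3 transporter (-0.47, limma adjusted p = 0.0314), Adpgk, an ADP-dependent glucokinase (-0.32, 0.0350), and Pck2, mitochondrial phosphoenolpyruvate carboxykinase (-0.45, 0.00963). For these 3 genes the groups did not overlap, and their differences with all libraries were -0.45, -0.24 and -0.40. Those higher, here and below with the difference without replicate 3 in brackets and then that with all libraries, were Ldhd (1.58, 1.02), Aqp7, a glycerol channel (0.78, 0.28), Gpd2 (0.63, 0.43), Gpd1l (0.56, 0.42), Pcx, pyruvate carboxylase (0.48, 0.030), and Galm (0.42, 0.41). Relative to the control mean, DICER_KO replicate 3 lay at -0.87 for Pcx, -0.71 for Aqp7 and -0.11 for Ldhd, opposite to replicates 1 and 2. Gpd2 is the mitochondrial partner of Gpd1 in the glycerol phosphate shuttle. Of these, Gpd1l and Galm were higher in all 3 DICER_KO libraries than in any control.

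Of 6 other pentose phosphate genes 1 was called higher, Idnk (0.46, 0.36, limma adjusted p = 0.0302 without replicate 3), and 0 lower, or 16.7% beside 19.7% of all genes, at a list median of 0.28. Of 19 other glycogen genes 3 were called higher and 2 lower, or 26.3% beside 19.7% of all genes. Gys2, the liver form of glycogen synthase, had 2.53, 2.67 and 0.47 in DICER_KO, against 1.83, 1.49 and 1.49 in control (0.999, 0.29, limma adjusted p = 0.00253 without replicate 3). Ppp1r3d, another glycogen-targeting subunit gene of protein phosphatase 1, was also higher (0.84, 0.33). For both, DICER_KO replicate 3 lay below the control mean, at -1.13 for Gys2 and -0.67 for Ppp1r3d. Nhlrc1, the ubiquitin ligase malin (-0.995, -0.98), and Stbd1, a glycogen-binding protein (-0.42, -0.22), were lower. Nhlrc1 was near the low-value limit, with -0.61, 0.46 and -0.029 in DICER_KO, against 0.95, 0.76 and 1.04 in control.

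Targets of hypoxia-inducible factor outside glycolysis were read beside Slc2a1, Pfkfb3 and Slc16a3, members called lower without DICER_KO replicate 3. Hk2, Aldoa and Pgk1, members that also carry ACGTG, were not called in that fit, with differences of 0.0097, 0.030 and -0.19. Members that are targets were not counted as a set. Of the 16 targets outside glycolysis tested, 14 had negative differences with all libraries. The list median was -0.17, beside 0.018 over all genes. Without DICER_KO replicate 3, 0 were called higher and 5 lower (31.2%, beside 7.22% of all genes called lower). P4ha1, a collagen prolyl hydroxylase, had 8.61, 8.78 and 8.96 in DICER_KO, against 9.14, 9.37 and 9.18 in control (-0.54, -0.45, limma adjusted p = 0.00232 without replicate 3). The related P4ha2 (-0.51, -0.42), Ddit4, an inhibitor of mTORC1 (-0.66, -0.56), Adm, the peptide adrenomedullin (-0.53, -0.40), and Loxl2, a collagen crosslinking enzyme (-0.41, -0.32), were also lower. The other targets tested did not pass in either fit. Of these, Bnip3 (0.38, 0.25) and Bnip3l (0.22, 0.15) had positive differences. Vegfa, Ankrd37, Egln1, Egln3, Ndrg1, Mxi1, Pdk1, Higd1a and Fam162a had negative differences. P4ha1, P4ha2 and Loxl2 act on collagen, and the collagen genes among the stromal markers were lower too: Col3a1 had 9.62, 9.92 and 9.20 in DICER_KO, against 10.97, 11.08 and 10.998 in control, a difference of -1.44 (SE 0.17, limma adjusted p = 0.00856) with all libraries. Oxygen and hypoxia-inducible factor protein were not measured, and the part of the stromal content in these values was not tested.

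Among 5 glucose-sensing genes 1 was called higher and 1 lower without replicate 3, or 40% beside 19.7% of all genes. Mlxipl had 4.99, 5.10 and 3.43 in DICER_KO, against 4.51, 4.29 and 4.31 in control. Mlxipl encodes ChREBP, a glucose-responsive transcription factor, and its difference was 0.68 (SE 0.12, limma adjusted p = 0.000977) without replicate 3 and 0.14 with all libraries. Txnip had 10.24, 10.33 and 10.47 in DICER_KO, against 10.82, 10.87 and 10.70 in control. Txnip encodes a thioredoxin-binding protein that lowers glucose uptake. All 3 DICER_KO libraries were below all controls, with a difference of -0.45 (SE 0.12, limma adjusted p = 0.144) with all libraries and -0.51 (SE 0.11, limma adjusted p = 0.00346) without replicate 3.

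**Figure D5:**
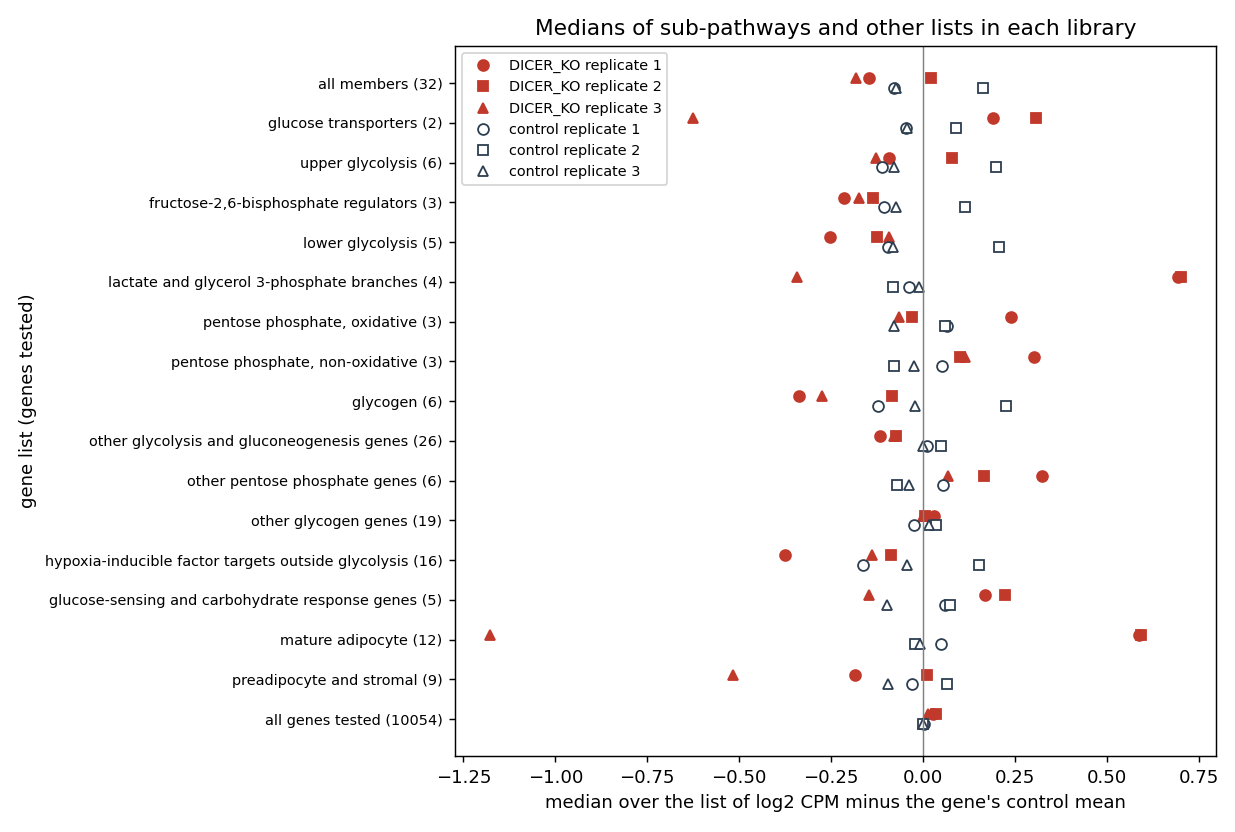
Median over each sub-pathway and list, in each library, of log2 CPM minus the control mean of the gene, with the number of genes tested in brackets. The lactate and glycerol 3-phosphate branches lie at 0.69 and 0.70 in DICER_KO replicates 1 and 2 and at -0.34 in replicate 3, while the mature adipocyte markers lie at 0.59, 0.59 and -1.18.

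By sub-pathway, the medians of the DICER_KO libraries fell on both sides of 0 for the transporters, at 0.19, 0.31 and -0.63, for upper glycolysis, at -0.093, 0.078 and -0.13, for the oxidative pentose phosphate genes, at 0.24, -0.029 and -0.066, and for the lactate and glycerol 3-phosphate branches. The glycogen genes had -0.34, -0.086 and -0.28 in DICER_KO, against -0.12, 0.22 and -0.021 in control. Lower glycolysis had -0.25, -0.12 and -0.093 in DICER_KO, against -0.095, 0.21 and -0.081 in control. The medians of control replicate 2 were above those of the other controls in both sub-pathways. The non-oxidative pentose phosphate genes were the sub-pathway with positive medians in all 3 DICER_KO libraries, at 0.30, 0.10 and 0.11, against 0.050, -0.080 and -0.025 in control.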

How the data were processed

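RNA was measured in 6 libraries, and the authors deposited log2 CPM per gene. Tools listed in the submitters' processing notes, without versions, are HISAT2, featureCounts, edgeR, Trimmomatic and FastQC, with the genome builds GRCm38 and mm10. Each deposited value equals the log2 CPM of a whole number of reads plus 0.5, with 100% whole at a tolerance of 0.01 reads. Strand use in counting is not given in the sources used here.

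Of 13734 genes, 13682 matched a RefSeq symbol (GRCm38.p6), and coordinates come from there. Genes that reached 1 CPM in 3 or more libraries (10054) were fitted with limma 3.58.1 (R 4.3.3), with an intensity trend and the group as the only term. Adjusted p-values are Benjamini-Hochberg over those genes, threshold 0.05. Differences are DICER_KO minus control in log2 CPM, which understate changes of low genes. Lengths are union exons of GENCODE M21. The members and gene lists were chosen with earlier results of these data known. Described in full are members called with all libraries or without DICER_KO replicate 3, the smallest p in each sub-pathway, and isozyme families. Also named are genes of the other lists called in either fit, and a result on 1 such gene is not reported here. The script was tested on simulated data. Scaling, filter, pseudocount, test and left-out libraries were varied.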

Additional observations from a re-analysis of the deposited data

How the results depend on the processing

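With array weights, 2542 genes were higher and 1942 lower in DICER_KO, against 15 and 29 without weights, and 9 members were higher and 6 lower. The weights ran from 0.203 (DICER_KO replicate 3) to 7.54 (control replicate 1) and their estimate stopped before it converged. The median of the members was then 0.013 and not -0.11. With array weights the signs of Hk2 (0.15), Aldoa (0.041), Gapdh (0.11) and Gys1 (0.075) reversed, as did Hk2 scaled to the table's total (0.0090) and Slc16a1 with equal medians (-0.014). The cause was not tested. Leaving out 1 library gave 0 to 1257 genes higher and 1 to 726 lower, and 0 to 6 members higher and 0 to 4 lower, with calls among members only without DICER_KO replicate 3. Without DICER_KO replicate 2 there were 7 and 12 genes, and without control replicate 1, 2 or 3 there were 4 and 7, 3 and 7, and 0 and 1. Leave-one-out differences changed sign for Hk2 (-0.077 to 0.082), Pfkm (-0.017 to 0.10), Pfkp (-0.073 to 0.16), Aldoa (-0.19 to 0.030), Slc16a1 (-0.072 to 0.19), Pgls (-0.28 to 0.0006), Pgd (-0.15 to 0.087) and Tkt (-0.050 to 0.19). The labels do not say whether equal replicate numbers mark paired samples. Correlations of deviations from the group means were 0.20, -0.014 and -0.079 for equal numbers, and -0.23 to 0.17 for unequal numbers. The DICER_KO means include replicate 3, which stood apart, so these correlations cannot decide whether the samples were paired. With replicate block 0 genes were higher and 2 lower and 0 members passed. Without DICER_KO replicate 3, a fit chosen after seeing the data with replicate block gave 9 members higher and 12 lower, against 6 and 4, beside 27.4% and 20.3% of all genes. That fit had few libraries for its number of terms. Other scalings, filters, pseudocount and limma-voom called 0 members. With 3 libraries a group, a difference that did not pass is not shown to be absent.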
